A study of Mus musculus with 7 samples.

Results

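The genes described here are those of glucose sensing, glycolysis and the tricarboxylic acid (TCA) cycle in mouse islets. They are 47 of the 34082 gene names in the deposited table, taken by name from textbook pathways. RNA was sequenced from islets of 7 pregnant C57BL/6 mice on day 15 of pregnancy, 1 library per mouse. There were 4 βPrlR+/- and 3 Prlr+/- mice, aged 3 to 4 months by the labels, while the methods of the paper give another age. In the Prlr+/- mice 1 allele of the prolactin receptor gene is missing from every tissue, and these mice carried no Cre and received no tamoxifen. In the βPrlR+/- mice the receptor gene is deleted in adult β-cells by Pdx1CreER, a tamoxifen-activated Cre driven by the Pdx1 promoter, and tamoxifen was given. Genotype, Cre and tamoxifen therefore differ together between the groups and cannot be told apart. The series description calls the β-cell deletion homozygous, the paper describes it as heterozygous, and the sample titles of these mice read CkoWt, a term that neither source explains. No wild type islets were analysed here. Islets were picked by hand and, by the methods, cultured overnight.

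β-cells couple insulin release to blood glucose by metabolizing it. Glucose enters through a transporter, is broken down to pyruvate in the cytosol, and the pyruvate is burned or carboxylated in mitochondria, where the TCA cycle and the shuttles that carry electrons across the inner membrane raise ATP and close potassium channels. Several of these steps can be run by more than one isozyme, each from its own gene and with its own control, and islets are known for a particular choice at some of them. β-cell demand for this machinery grows in pregnancy, when prolactin and placental lactogen act through the prolactin receptor. The comparison asks whether losing the receptor in all tissues, as against in β-cells, goes with a different level of any of these genes or a different choice among isozymes.

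Values are TPM, a share of transcripts corrected for their length that sums to 1000000 in each mouse, so that levels may be compared between genes. Levels are given as scaled TPM, after dividing by a size factor per mouse, and a difference is Prlr+/- minus βPrlR+/- on the log2(scaled TPM + 1) scale, which understates the change of low genes. The insulin genes held 46.1% to 58.9% of each mouse's TPM, and all 14 β-cell markers found in the table were above the filter of a mean of 0.5 TPM, as the islet label requires. The summed level of 17 acinar marker genes, from the exocrine pancreas around the islets, ran from 3002 to 25759 scaled TPM in the βPrlR+/- mice and from 8111 to 20896 in the Prlr+/- mice. PRLR, the targeted gene, was at 55.7, 38.4, 47.3 and 38.8 scaled TPM in βPrlR+/- mice 1 to 4 and at 36.1, 51.1 and 35.1 in Prlr+/- mice 1 to 3. These groups overlapped, both carry a deletion, and a gene total does not measure the deleted exon, so this does not check the labels.

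The 47 members together held 0.365% to 0.491% of each mouse's TPM. G6PC2 was the highest member, at a mean of 1381 scaled TPM over the 7 mice. GAPDH, ALDOA, PKM and SLC2A2 followed at 354, 348, 335 and 223 scaled TPM, and the ranges of GAPDH, ALDOA and PKM over the mice overlapped. At the low end were SLC2A3 at 1.68, PFKFB3 at 1.52, ME3 at 1.01 and PCK1 at 0.0213 scaled TPM. PCK1 fell below the filter, so 46 members were tested.

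**Figure D1:**
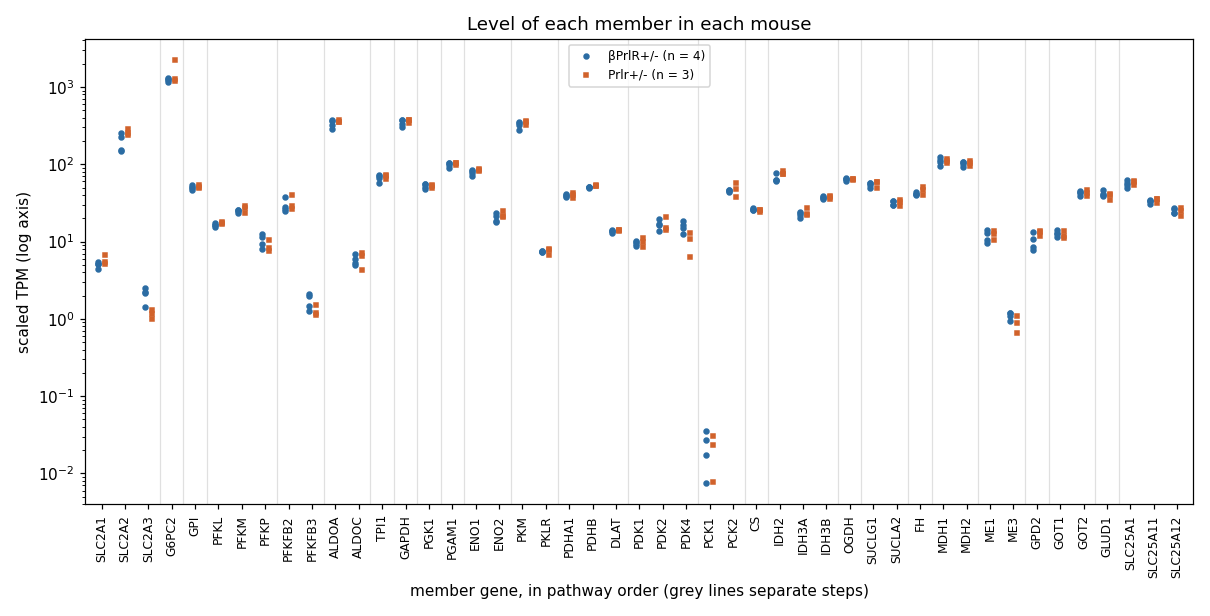
Level of each of the 47 members in each mouse, in scaled TPM on a log axis, ordered along the pathway with grey lines between steps (circles: 4 βPrlR+/- mice, squares: 3 Prlr+/- mice). Most genes show overlapping groups, with G6PC2 at the top, PCK1 at the bottom and 1 Prlr+/- mouse apart for G6PC2.

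No member passed an adjusted p of 0.05 in limma with Benjamini-Hochberg adjustment over all 14840 genes tested, where 10 genes (0.0674%) passed. The smallest adjusted p among the members was 0.694, and limma with a robust or a constant prior variance also called 0. An unadjusted limma p under 0.05 was found for 3 members, 6.52% of those tested beside 4.52% of all genes. SLC2A3 and PDK4 had the lower mean in Prlr+/- mice (2.94% of all genes were called that way) and IDH2 the higher (1.58%). The groups did not overlap for 3 members, also 6.52%, beside 4.95% of all genes. Of these SLC2A3 and CS were lower in Prlr+/- mice (3.11% of all genes) and PDHB higher (1.84%). Both shares lie near the background. Of the 46 members, 34 had the higher mean in Prlr+/- mice (73.9%, beside 51.7% of all genes), with a median difference of 0.03 beside 0.00 for all genes. That direction depends on the scaling, since 5 members were higher with TPM as deposited and 2 when each mouse was scaled to its β-cell markers. Those scalings moved the median of all genes to -0.12 and -0.28. In islet RNA, fewer cells of a type and less RNA per cell cannot be told apart.

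With the scaling used here, most differences were bounded closely. For 38 members (82.6%, beside 81.4% of all genes) the 95% interval of the difference lay within 0.5 log2 units of no change. With β-cell marker scaling this held for 1 member and 7.86% of all genes, and in the other settings tried for 33 to 40 members. The median standard error was 0.091 log2 units for the members and 0.099 for all genes. Within the groups the members varied between mice by a median of 8.73%, beside 11.2% for all genes tested, and by 1.85% for PDHB and 26.4% for G6PC2 at the ends.

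**Figure D2:**
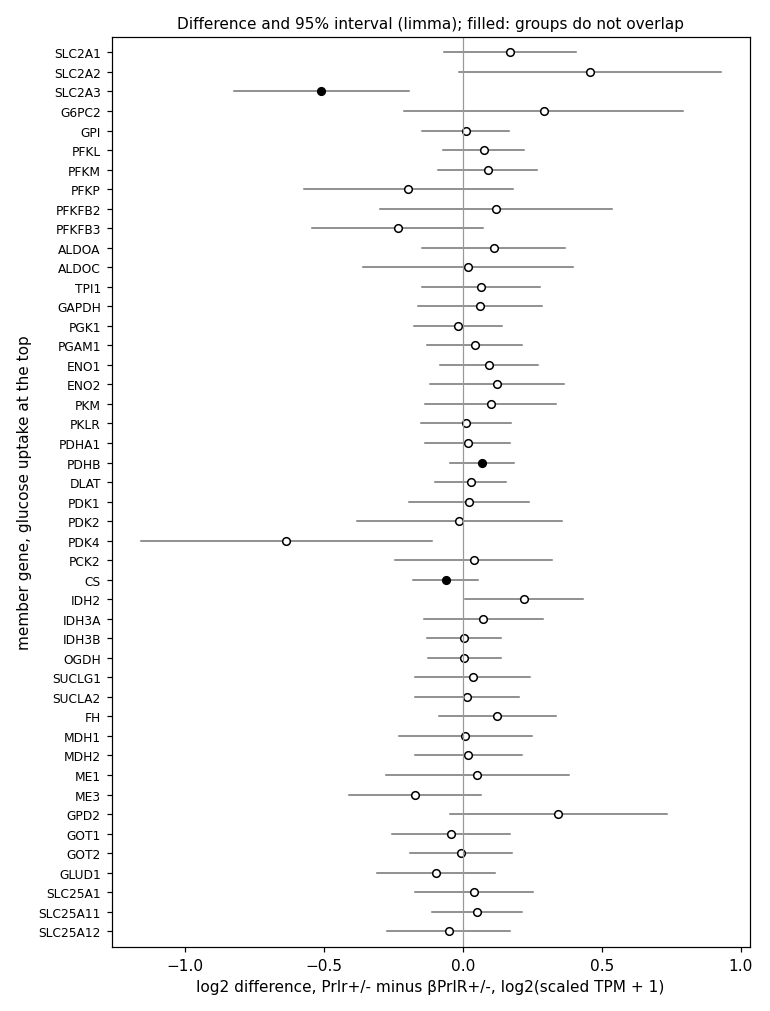
Difference of each tested member between groups, as log2(scaled TPM + 1) in Prlr+/- minus βPrlR+/- mice, with the 95% interval from limma; filled points mark groups that do not overlap. The intervals of SLC2A3, PDK4 and IDH2 leave out 0 before adjustment, and most others are centred close to it.

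Among the 3 glucose transporters, the groups did not overlap for the least abundant one. SLC2A3 (GLUT3), a high-affinity transporter best known from neurons, was at 1.44, 2.19, 2.20 and 2.51 scaled TPM in βPrlR+/- mice 1 to 4 and at 1.29, 0.988 and 1.17 in Prlr+/- mice 1 to 3. Every Prlr+/- mouse lay below every βPrlR+/- mouse, though the closest pair was near. Group means of 2.08 ± 0.46 (SD, n = 4) and 1.15 ± 0.15 (SD, n = 3) gave a difference of -0.51 with a standard error of 0.13 (limma, adjusted p = 0.694). With a pseudocount of 0.1 in place of 1 the difference was -0.78. An exact two-sided permutation test over the 35 splits of the mice gave p = 0.0571, where 0.0286 is the smallest it allows. Here and below, groups without overlap give a p at or near that floor, so it adds little to the separation itself. The direction and the gap between the groups held in each of the 16 other settings tried (limma adjusted p from 0.174 upward). The unadjusted limma p was 0.0539 when βPrlR+/- mice 2 and 3, the extremes of the acinar markers, were both left out. These are the extremes by mean log2 level, at 6.02 and 8.71. βPrlR+/- mouse 1, which stayed in, was nearly as high as mouse 3, at 8.68.

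No marker of the other cell lists passed the adjusted threshold in limma, but several lists had mostly lower means in Prlr+/- mice, as SLC2A3 had. Of 13 endothelial markers tested, 13 had the lower mean in Prlr+/- mice, 6 of them with an unadjusted limma p under 0.05 (46.2%, beside 4.52% of all genes) and 4 without overlap (30.8%, beside 4.95%). The summed level of the list was 226 to 269 scaled TPM in βPrlR+/- and 190 to 234 in Prlr+/- mice. Of 12 neuron and Schwann cell markers tested, 10 were lower on average, with sums of 215 to 372 and 186 to 243 scaled TPM. An unadjusted limma p under 0.05 was found for 5 of them (41.7%), 4 lower and ELAVL4 higher, and 5 did not overlap (41.7%). No marker of either list was at 0 in all mice, although CLDN5 (0.222 and 0.106 scaled TPM on average), CHAT (0.239 and 0.112) and DBH (0.104 and 0.042) were low in both groups. CHAT was below the filter and not tested in limma, and its groups did not overlap (exact permutation p = 0.0286). Means were also lower in Prlr+/- mice for 8 of 9 α-cell markers, 6 of 7 δ- and PP-cell markers and 8 of 9 fibroblast and pericyte markers. They were lower for 3 of 6 duct, 4 of 16 acinar and 2 of 9 leukocyte markers, and higher for 13 of 14 β-cell markers (51.7% of all genes were higher). An unadjusted limma p under 0.05 was found for 2 α-cell markers (22.2%), both lower, and 2 β-cell markers (14.3%), both higher. Of these lists only the α-cell one had a marker without overlap, GC (11.1%), which was lower. The part of these lists in the SLC2A3 difference was not tested.

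SLC2A2 (GLUT2), the high-capacity transporter of rodent β-cells, was at 225, 152, 252 and 148 scaled TPM in βPrlR+/- mice 1 to 4 and at 253, 285 and 243 in Prlr+/- mice 1 to 3. Low values were confined to βPrlR+/- mice 2 and 4, and the groups overlapped. The difference was 0.46 (95% interval -0.01 to 0.93, exact permutation p = 0.171). βPrlR+/- mice 2 and 4 also had the lowest levels of the β-cell markers other than insulin, taken from TPM as deposited. These were 0.873 and 0.805 relative to the geometric mean of all mice, against 1.12 and 1.01 in βPrlR+/- mice 1 and 3. In Prlr+/- mice they ran from 0.974 to 1.26. The summed scaled TPM of the whole list, insulin included, was lowest in βPrlR+/- mouse 3. Scaled to the markers other than insulin, the SLC2A2 difference was 0.12, where the median of all genes was -0.28. The SLC2A2 difference was 0.47 after leaving out the insulin genes, with an unadjusted limma p of 0.0205 and no overlap. Of the 17 settings, the main one included, 4 gave an unadjusted limma p under 0.05, the smallest 0.0135. The groups also separated without βPrlR+/- mouse 3, without Prlr+/- mouse 3 and without both acinar extremes. SLC2A1 (GLUT1), the broadly expressed transporter, was at 5.03 ± 0.43 (SD, n = 4) and 5.80 ± 0.87 (SD, n = 3) scaled TPM, with overlapping groups.

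SLC2A2 therefore held 96.2% ± 1.3 (SD, n = 4) of the TPM of the 3 transporters in βPrlR+/- and 97.4% ± 0.50 (SD, n = 3) in Prlr+/- mice. The share of SLC2A3 stood at 0.620%, 1.37%, 0.851% and 1.61% in βPrlR+/- mice 1 to 4 and at 0.498%, 0.339% and 0.467% in Prlr+/- mice 1 to 3. Those groups did not overlap either (exact permutation p = 0.0571). The total is almost all SLC2A2, which was itself low in βPrlR+/- mice 2 and 4, so the share is not independent of that gene. It leaves out other transporter genes, among them SLC2A5 at 119 ± 8.5 (SD, n = 4) and 135 ± 13 (SD, n = 3) scaled TPM. A total that counted SLC2A5 would give SLC2A2 a clearly smaller share.

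**Figure D3:**
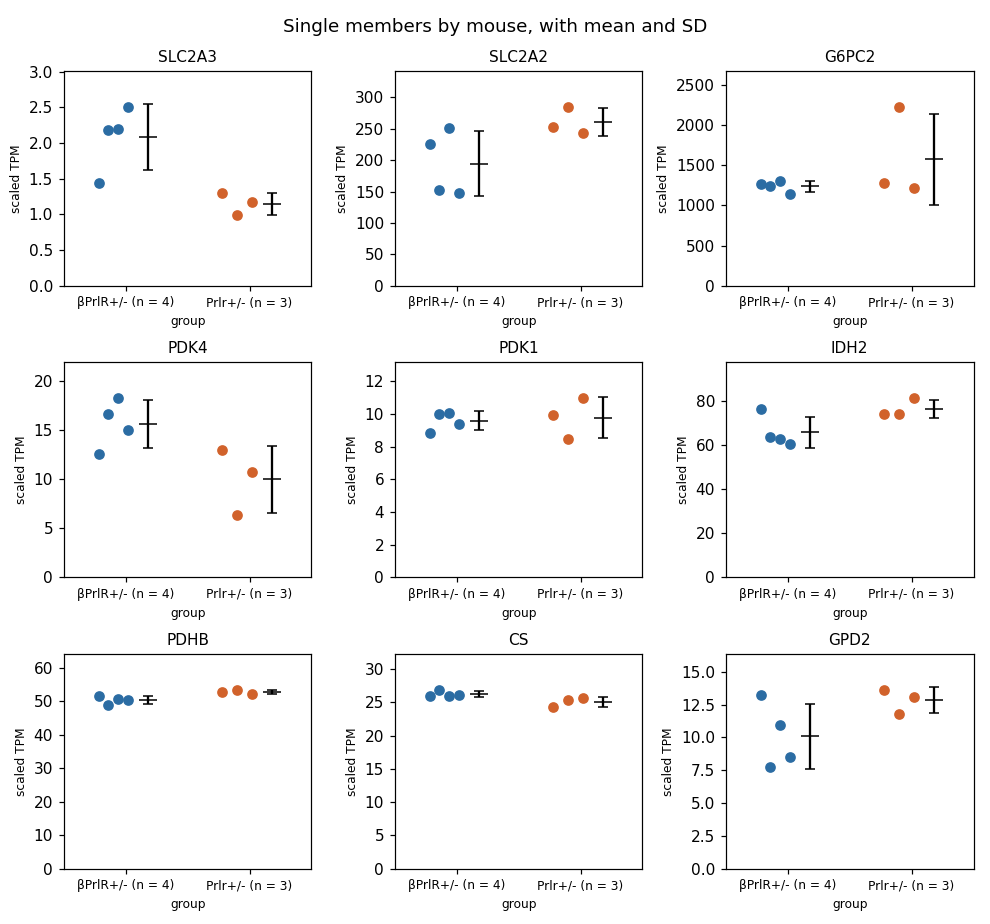
Scaled TPM of 9 members in each mouse (points), with the mean and SD of each group beside them (4 βPrlR+/- and 3 Prlr+/- mice, axes from 0). The groups separate for SLC2A3, PDHB and CS, by far less than their level for the last pair, and for G6PC2 1 Prlr+/- mouse stands at 2232.

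G6PC2, the islet glucose-6-phosphatase that turns glucose 6-phosphate back into glucose, was at 1262, 1237, 1302 and 1147 scaled TPM in βPrlR+/- mice 1 to 4. It was at 1276, 2232 and 1213 in Prlr+/- mice 1 to 3, so that mouse 2 alone carried the higher mean. The difference was 0.29 (95% interval -0.21 to 0.79), and 0.01 without that mouse. The extra level in Prlr+/- mouse 2 was mostly in 1 curated transcript, at 1424 TPM as deposited beside 499 to 744 in the other mice, while another curated transcript was at 561 TPM, within the range of 271 to 625. GPI, which converts glucose 6-phosphate to fructose 6-phosphate, was at 50.4 ± 3.1 (SD, n = 4) and 50.8 ± 2.3 (SD, n = 3) scaled TPM.

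Phosphofructokinase, the committed step of glycolysis, drew on 3 genes, the muscle type PFKM first. Its share of the step stood at 47.7%, 48.1%, 49.2% and 48.0% in βPrlR+/- mice 1 to 4 and at 51.9%, 48.3% and 50.9% in Prlr+/- mice 1 to 3. Prlr+/- mouse 2 fell within the βPrlR+/- range, and the exact permutation p was 0.0857 (0.343 adjusted over 12 steps). The liver type PFKL held 28.6% to 34.7% and the platelet type PFKP 14.4% to 23.4% over the mice. Levels were 24.9 ± 1.0 and 26.6 ± 2.5 scaled TPM for PFKM, with intervals of the difference from -0.09 to 0.27. For PFKP, 65.9% to 85.9% of the TPM lay on a predicted non-coding transcript, so its gene level is mostly not that of a curated coding transcript.

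PFKFB2 and PFKFB3 set fructose 2,6-bisphosphate, the activator of phosphofructokinase. PFKFB2 was at 29.2 ± 5.6 (SD, n = 4) and 32.0 ± 7.5 (SD, n = 3) scaled TPM and held 93.5% to 97.1% of the pair. With every isozyme counted it held 86.5% in βPrlR+/- and 87.7% in Prlr+/- mice, and PFKFB4 held 6.97% and 7.22%. PFKFB3, the strongly kinase-biased and inducible form, was at 1.26, 1.47, 2.09 and 1.96 scaled TPM in βPrlR+/- mice 1 to 4 and at 1.51, 1.19 and 1.14 in Prlr+/- mice 1 to 3. These overlapped, with a difference of -0.23 (95% interval -0.54 to 0.07).

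From aldolase to enolase the groups overlapped for every member in scaled TPM. ALDOA, the main aldolase, held 97.6% to 98.8% of the aldolase pair over all mice, and ALDOC the rest. TPI1, GAPDH, PGK1 and PGAM1, which take the triose phosphates to 2-phosphoglycerate, differed by 0.06, 0.06, -0.02 and 0.04 on the log2 scale. PGK1, the reference gene of the RT-qPCR in this study, was at 55.1, 55.0, 48.4 and 51.4 scaled TPM in βPrlR+/- mice 1 to 4 and at 53.5, 49.1 and 52.9 in Prlr+/- mice 1 to 3. Its 95% interval ran from -0.18 to 0.14. With TPM as deposited the PGK1 groups did not overlap, at 52.0 to 58.8 against 46.6 to 51.3 TPM, a difference of -0.16 beside -0.12 for the median of all genes. SUCLA2 and MDH2 also separated in that scaling. βPrlR+/- mouse 3 was the lowest of its group for ALDOA, TPI1, GAPDH, PGK1, PGAM1, ENO1 and ENO2. ENO1, the ubiquitous enolase, held 78.0% to 80.5% of its pair with the neuroendocrine ENO2, and the means of the groups were 79.5% ± 0.79 and 79.1% ± 0.96. The muscle enolase ENO3, at 14.7 ± 1.8 (SD, n = 4) and 13.4 ± 3.7 (SD, n = 3) scaled TPM, held 12.9% and 11.2% of all 3 enolases. With it the ENO1 share was 69.2% and 70.3%, and the difference turned from -0.36 to 1.04 percentage points, with overlapping groups either way.

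Pyruvate kinase, the last step of glycolysis, came almost wholly from PKM. PKM held 97.8% ± 0.21 (SD, n = 4) and 97.9% ± 0.074 (SD, n = 3) of the step, at 325 ± 33 and 347 ± 22 scaled TPM, and PKLR stood at 7.42 ± 0.15 and 7.50 ± 0.67. Transcripts of PKM use 1 of 2 neighbouring exons of equal length, which give the constitutively active M1 or the regulated M2 enzyme. Both are shown 5′ to 3′ on the plus strand of GRCm38 from the GENCODE transcripts, because the curated transcripts differ in them. They lie at chr9:59675029-59675195 (M1) and chr9:59675568-59675734 (M2), are 167 bases long and coding, and capitals mark the 64 positions at which they differ.
Pkm M1 exon: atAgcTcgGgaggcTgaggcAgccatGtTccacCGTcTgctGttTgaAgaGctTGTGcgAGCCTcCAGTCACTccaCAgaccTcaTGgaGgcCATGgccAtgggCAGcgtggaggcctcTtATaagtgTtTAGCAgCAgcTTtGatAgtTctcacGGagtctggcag
Pkm M2 exon: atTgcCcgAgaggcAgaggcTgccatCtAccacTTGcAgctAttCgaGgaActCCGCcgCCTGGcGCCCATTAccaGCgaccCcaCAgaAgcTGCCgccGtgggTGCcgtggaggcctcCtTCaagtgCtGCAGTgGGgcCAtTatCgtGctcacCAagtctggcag

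The pair is 61.7% identical, so reads within these exons can be told apart. The curated M2 transcript was at 31.4, 38.8, 27.7 and 34.7 TPM as deposited in βPrlR+/- mice 1 to 4 and at 31.1, 30.6 and 33.2 in Prlr+/- mice 1 to 3. The curated M1 transcript was at 6.3e-06 TPM or less in each of the 7 mice. Both curated forms together held only 8.92% to 10.3% of the PKM total. A pair of predicted transcripts held nearly all of the rest, 46.4% to 50.6% and 39.0% to 42.6%, and which of the exons they carry is not given in the sources used here, so the M1 share of the whole gene is not known. The leading transcript's share did not differ beyond the spread, at 49.2% ± 1.9 (SD, n = 4) and 48.6% ± 0.80 (SD, n = 3).

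PKLR has an upstream start for the red cell (R) enzyme and a downstream start for the liver (L) enzyme, the classical glucose-responsive gene of liver and β-cells. The stretches before both starts are shown because the curated transcripts from them differed in level in these islets. They are RefSeq sequences of GRCm38.p6 on the plus strand, chr3:89135892-89136141 (R-type) and chr3:89136373-89136571 (L-type, ended before the first annotated transcript base in GENCODE). Capitals mark the known carbohydrate response element at chr3:89136453-89136469, a pair of E-box-like elements in inverted order around 5 bases.
Pklr R-type promoter: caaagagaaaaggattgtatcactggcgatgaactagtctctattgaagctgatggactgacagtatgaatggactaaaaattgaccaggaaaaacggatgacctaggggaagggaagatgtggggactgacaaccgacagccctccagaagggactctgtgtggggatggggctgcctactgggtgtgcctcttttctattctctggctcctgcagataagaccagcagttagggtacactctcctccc
Pklr L-type promoter: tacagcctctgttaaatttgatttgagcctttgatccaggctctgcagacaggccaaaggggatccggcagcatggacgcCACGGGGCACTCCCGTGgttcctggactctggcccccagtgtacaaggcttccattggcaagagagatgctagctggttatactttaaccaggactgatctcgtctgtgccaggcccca

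The curated L-type transcript was at 5.18, 5.30, 6.51 and 6.08 TPM as deposited in βPrlR+/- mice 1 to 4 and at 4.79, 4.03 and 5.45 in Prlr+/- mice 1 to 3. These overlap, and the L-type held 60.2% to 81.0% of the gene, with a predicted transcript holding nearly all the rest, at 19.04% to 39.83%. Which start that transcript uses is not given in the sources used here. The curated R-type transcript was listed at 0 in 6 of the 7 mice and at 0.136 TPM in βPrlR+/- mouse 1.

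**Figure D4:**
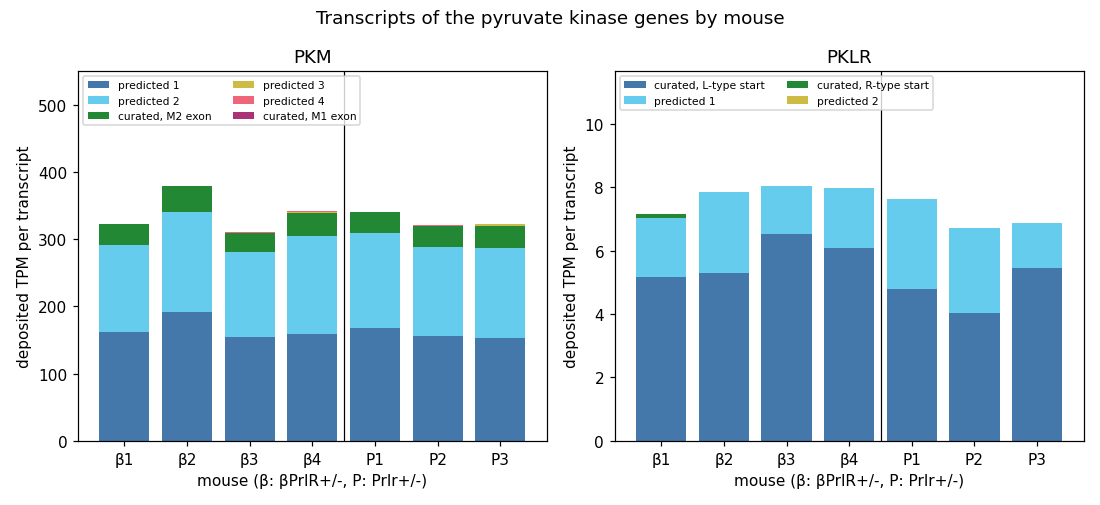
TPM as deposited of each transcript of PKM (left) and PKLR (right), stacked by mouse (β1 to β4: βPrlR+/-, P1 to P3: Prlr+/-; predicted transcripts are numbered by their mean). A pair of predicted transcripts holds most of PKM, the curated M2 form about 10% and the curated M1 form no visible part, and the curated L-type transcript holds most of PKLR.

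The letters CACGGGNNNNNCCCGTG, searched on both strands of the 300 bases from 250 before to 50 after each RefSeq start, occur in 1 of 32851 promoters (0.00304%), that of the L-type start itself, from which this spelling is known. The E-box CACGTG occurs in 8 of 68 member promoters (11.8%, beside 7.15% of all promoters). These belong to 6 of the 45 members with an entry, PFKFB2, PFKFB3, PFKM, PDK2, OGDH and SLC25A1. SLC2A3 and IDH3A had no entry. A match describes letters only.

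The pyruvate dehydrogenase complex admits pyruvate to the TCA cycle. PDHB, its E1 beta subunit, was at 51.6, 48.9, 50.7 and 50.5 scaled TPM in βPrlR+/- mice 1 to 4 and at 52.9, 53.6 and 52.3 in Prlr+/- mice 1 to 3. All Prlr+/- mice were higher, by little: the difference was 0.07 (95% interval -0.05 to 0.18, limma p = 0.198, exact permutation p = 0.0571). The sign of the PDHB difference changed with TPM as deposited, at -0.07 beside -0.12 for the median of all genes, and with β-cell marker scaling, at -0.27 beside -0.28. The PDHB groups overlapped under each of the 4 other scalings. PDHA1, the E1 alpha subunit, and DLAT, the E2 subunit, differed by 0.02 and 0.03, with overlapping groups.

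The kinases that switch this complex off showed the widest spread of isozyme choice. PDK4, the form induced by fasting and fatty acids, was at 12.5, 16.6, 18.2 and 14.9 scaled TPM in βPrlR+/- mice 1 to 4 and at 12.9, 6.28 and 10.7 in Prlr+/- mice 1 to 3. Prlr+/- mouse 1 lay above βPrlR+/- mouse 1, and the other 2 Prlr+/- mice lay below all βPrlR+/- mice. Group means of 15.6 ± 2.4 (SD, n = 4) and 9.95 ± 3.4 (SD, n = 3) gave a difference of -0.64 with a standard error of 0.22 (limma p = 0.0235, adjusted p = 0.962, exact permutation p = 0.0857). Leaving out Prlr+/- mouse 2, the lowest, gave -0.37. The unadjusted limma p rose above 0.05 without that mouse (0.0515) and without βPrlR+/- mouse 2 (0.0507) or mouse 3 (0.0577). It was 0.146 without both of the latter, the extremes of the acinar markers. No member's difference moved by more than 0.161 log2 units in that setting.

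PDK2, the kinase with the highest mean of the 3, was at 16.7 scaled TPM in both groups, with a 95% interval of the difference from -0.38 to 0.36. PDK1, a hypoxia-inducible form, was at 9.59 ± 0.58 (SD, n = 4) and 9.79 ± 1.3 (SD, n = 3). The share of PDK1 among the 3 kinases stood at 23.5%, 21.6%, 23.9% and 22.7% in βPrlR+/- mice 1 to 4 and at 26.8%, 28.6% and 25.8% in Prlr+/- mice 1 to 3. These shares did not overlap (exact permutation p = 0.0286), while the level of PDK1 did. The share depends on the other kinases in the total, of which PDK4 held 37.1% and 27.0%. Counting the fourth kinase PDK3, which held 18.03% and 20.64% of all 4, the PDK1 share was 18.8% and 21.4%, still without overlap. Taken from the most abundant transcript of each kinase, the shares overlapped. PDK1 and SLC2A3 were the only 2 of 28 isozyme shares (7.14%) that separated the groups, and the leading kinase share, that of PDK2, did not (exact permutation p = 0.257).

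At the entry to and exit from the cycle, PCK2, the mitochondrial phosphoenolpyruvate carboxykinase, was at 45.5 ± 1.2 (SD, n = 4) and 47.4 ± 9.2 (SD, n = 3) scaled TPM. It held at least 99.9% of the pair, and PCK1, the cytosolic enzyme of liver gluconeogenesis, was at 0.00747 to 0.035 scaled TPM. CS, citrate synthase, was at 25.96, 26.9, 25.9 and 26.1 scaled TPM in βPrlR+/- mice 1 to 4 and at 24.2, 25.3 and 25.7 in Prlr+/- mice 1 to 3. The Prlr+/- mice were all lower, by a difference of -0.06 (95% interval from limma -0.18 to 0.06). The exact permutation p was 0.0286, the smallest this design allows, beside an unadjusted limma p of 0.254. The CS groups overlapped with TPM as deposited, without the insulin genes and with β-cell marker scaling. The CS difference was -0.20 with TPM as deposited, beside -0.12 for the median of all genes. Its unadjusted limma p was 0.0382 there, where 7.93% of all genes were under 0.05. With β-cell marker scaling the CS difference was -0.39, beside a median of -0.28.

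IDH2, the mitochondrial NADP-dependent isocitrate dehydrogenase, was at 76.3, 63.5, 62.8 and 60.5 scaled TPM in βPrlR+/- mice 1 to 4 and at 74.0, 74.1 and 81.4 in Prlr+/- mice 1 to 3. βPrlR+/- mouse 1 lay inside the Prlr+/- range and the other 3 lay below it. The difference was 0.22 with a standard error of 0.091 (limma p = 0.0449, far from the threshold after adjustment, exact permutation p = 0.114). Scaled to the β-cell markers it was -0.12, where the median of all genes was -0.28. The IDH2 difference was 0.07 with TPM as deposited, where that median was -0.12, and 0.19 with upper-quartile scaling. The unadjusted limma p was 0.276 and 0.0711. A constant prior variance (0.0516) and leaving out both acinar extremes (0.237) also put the p above 0.05. The former left the difference unchanged, and the latter moved no member's difference by more than 0.161 log2 units. Without the insulin genes the p was 0.0245, and the groups did not overlap. The unadjusted limma p stayed under 0.05 without βPrlR+/- mouse 1 (0.00381) and was 0.0592 to 0.145 when any other mouse was left out.

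Among the isocitrate dehydrogenases, IDH2 held 52.2% ± 2.0 (SD, n = 4) and 55.5% ± 0.80 (SD, n = 3) of the 3 members, with an exact permutation p of 0.0857. IDH3A and IDH3B, subunits of the NAD-dependent enzyme of the cycle, were at 22.6 ± 1.6 and 23.9 ± 2.9, and at 37.3 ± 1.4 and 37.5 ± 1.6 scaled TPM. The third subunit, IDH3G, held 32.8% and 30.5% when every isozyme was counted, and the IDH2 share was then 31.7% in βPrlR+/- mice and 3.30 percentage points higher in Prlr+/- mice. Subunits of 1 complex are counted here as separate genes.

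Through the rest of the cycle no member separated the groups. OGDH, the oxoglutarate dehydrogenase, was at 60.2 to 65.6 scaled TPM in all mice, with a difference of 0.00 (95% interval -0.13 to 0.14). SUCLG1 and SUCLA2, of succinyl-CoA synthetase, differed by 0.04 and 0.01. FH, fumarase, was at 41.8 ± 1.6 (SD, n = 4) and 45.8 ± 5.9 (SD, n = 3), with Prlr+/- mouse 3 the highest at 51.3. The cytosolic malate dehydrogenase MDH1 held 51.8% ± 1.3 (SD, n = 4) and 51.7% ± 0.50 (SD, n = 3) of its pair with the mitochondrial MDH2.

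The cytosolic malic enzyme ME1, which makes NADPH from malate, stood at 91.5%, 92.3%, 91.1% and 90.6% of its pair with ME3 in βPrlR+/- mice 1 to 4 and at 94.1%, 92.0% and 94.0% in Prlr+/- mice 1 to 3. Prlr+/- mouse 2 fell within the other group (exact permutation p = 0.0857). With ME2 added, which held 37.2% and 38.1% of the step, the ME1 share was 57.4% and 57.8%, so the pair alone does not describe the step. ME3, the mitochondrial NADP-dependent form, was at 1.11 ± 0.11 and 0.877 ± 0.21 scaled TPM.

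GPD2, the mitochondrial enzyme of the glycerol phosphate shuttle that β-cells express highly, was at 13.2, 7.76, 10.96 and 8.48 scaled TPM in βPrlR+/- mice 1 to 4 and at 13.7, 11.8 and 13.1 in Prlr+/- mice 1 to 3. Low values lay again in βPrlR+/- mice 2 and 4, and the groups overlapped. The difference was 0.34 (95% interval -0.05 to 0.73, exact permutation p = 0.143). Scaled to the β-cell markers, where the median of all genes was -0.28, it was 0.03. It was 0.36 without the insulin genes, with an unadjusted limma p of 0.0269. Without βPrlR+/- mouse 1 it was 0.47, with an unadjusted limma p of 0.00963 and no overlap. In the malate-aspartate shuttle, GOT2, the mitochondrial aspartate aminotransferase, held 76.3% to 78.2% of its pair with GOT1, and SLC25A11 and SLC25A12, the oxoglutarate and aspartate-glutamate carriers, differed by 0.05 and -0.05. GLUD1, glutamate dehydrogenase, was at 41.3 ± 3.1 and 38.6 ± 4.0 scaled TPM. SLC25A1, the citrate carrier, was at 56.2 ± 5.4 and 57.7 ± 4.1.

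Over the 12 steps with several member isozymes, the leading isozyme was the same gene in most mice and its share never separated the groups. Among members the lead changed within the kinases alone, where PDK4 led in βPrlR+/- mouse 3. With every isozyme counted, the lead among the isocitrate dehydrogenases changed too, since IDH3G exceeded IDH2 in βPrlR+/- mice 2, 3 and 4. The share of the leading isozyme differed by -0.36 to 5.97 percentage points, and the smallest p adjusted over the 12 steps was 0.343 (exact permutation test). A single step at the smallest possible p would not pass that adjustment. The upper end, for PDK2, was 3.61 percentage points without βPrlR+/- mouse 3. It was 9.81 without Prlr+/- mouse 1, where the PDK2 shares did not overlap.

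**Figure D5:**
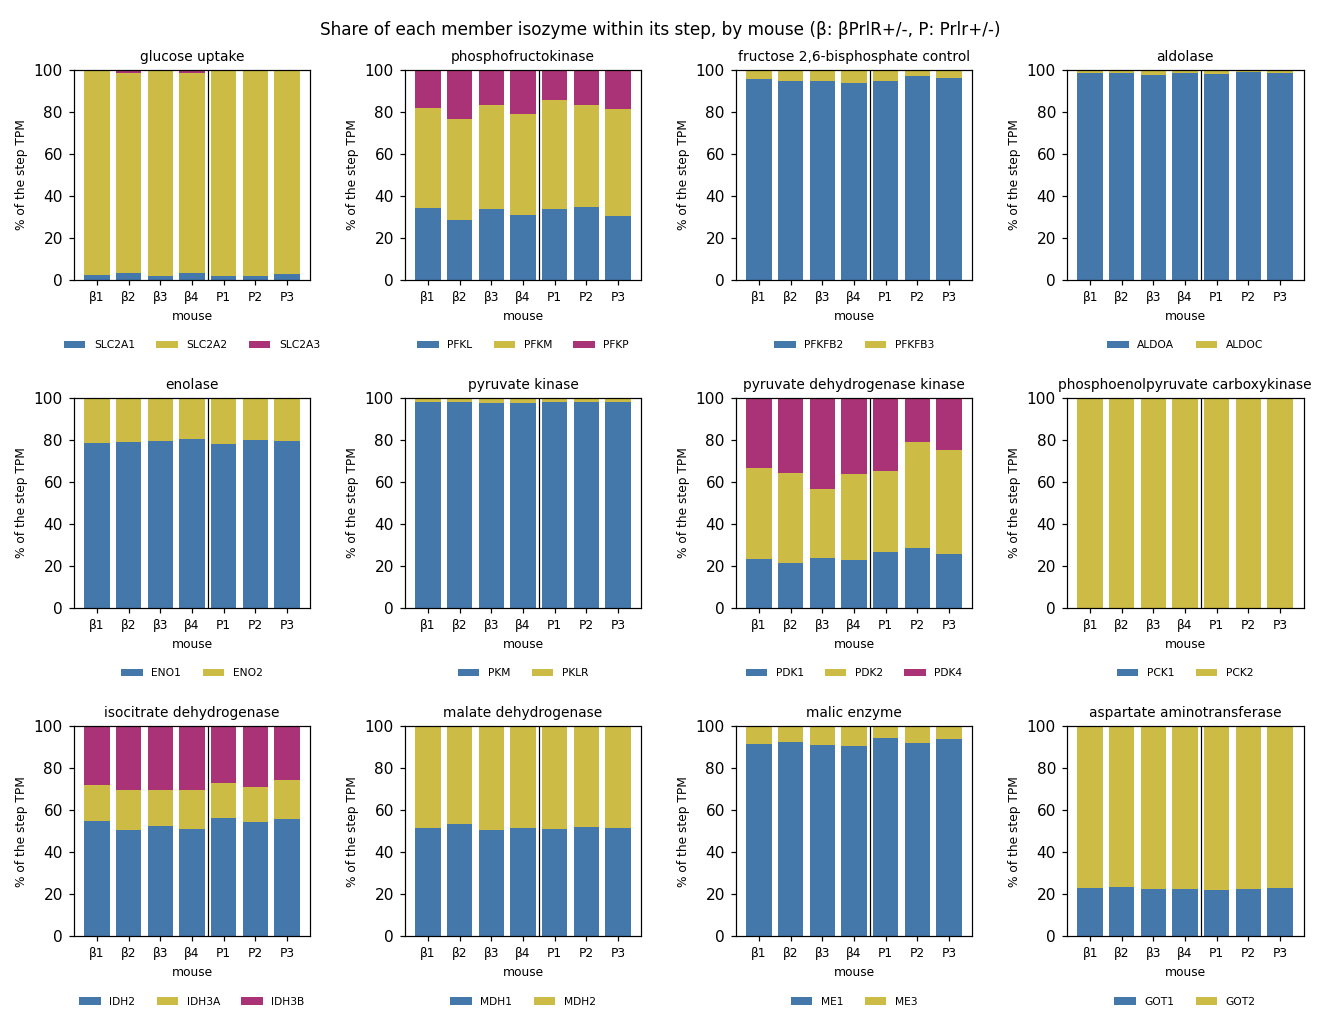
Share of each member isozyme in the summed TPM of its step, as percent, stacked by mouse for the 12 steps with several members (β1 to β4: βPrlR+/-, P1 to P3: Prlr+/-, divided by the black line). Among members, 1 isozyme holds over 90% in every mouse in 6 of the 12 steps, which for PFKFB2 and ME1 does not hold with every isozyme counted. For the glucose transporters that count added SLC2A4 alone and left out the abundant SLC2A5. The kinases of pyruvate dehydrogenase vary most between mice.

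Choice among transcripts of 1 gene was compared for the 24 members at a mean of 5 TPM or more with at least 2 transcripts above 0. The leading transcript's share separated the groups for 0 of them, beside 3.73% of 6415 genes, and the smallest exact permutation p was 0.143 (0.966 adjusted over the 24). MDH1 was left out because its 2 transcripts had identical values in every mouse. In GAPDH a single transcript held 98.4% to 98.8%, whereas the leading G6PC2 transcript held 45.7% to 64.2%. Transcript values are estimates from reads shared between near-identical sequences.

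Other genes of the same pathways, from a list of 52 drawn up by function, were compared the same way. Of 42 tested, 26 had the higher and 16 the lower mean in Prlr+/- mice, and 0 passed the adjusted threshold, with 4 at an unadjusted limma p under 0.05 (9.52%, beside 4.52% of all genes) and 5 without overlap (11.9%, beside 4.95%). HK1, a low-Km hexokinase, was at 3.25 ± 0.24 (SD, n = 4) and 2.30 ± 0.25 (SD, n = 3) scaled TPM, a difference of -0.37 (limma, adjusted p = 0.543, exact permutation p = 0.0286). The study lists HK1 among the genes it called on these samples, so this is not independent evidence of its direction. LDHA, lactate dehydrogenase A, at 7.51 ± 0.88 and 5.72 ± 0.84, and FBP1, fructose bisphosphatase, at 3.78 ± 0.24 and 2.80 ± 0.62, were lower as well, both without overlap (limma adjusted p = 0.962 for each). PDP1, the phosphatase that reactivates pyruvate dehydrogenase, at 3.38 ± 0.27 and 3.91 ± 0.12, and PFKFB4, at 2.31 ± 0.12 and 2.57 ± 0.13, were higher without overlap. FBP2, the muscle fructose bisphosphatase, was below the filter and not tested, at 0.544 ± 0.12 and 0.321 ± 0.032 scaled TPM, also without overlap.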

How the data were processed

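Islet RNA of 7 pregnant mice was measured by poly(A)-selected, strand-specific RNA sequencing, 1 library per mouse. The authors assigned reads to mouse RefSeq transcripts with kallisto 0.42.4, by the submitters' processing notes. The deposited values are called FPKM in the methods but sum to 1000000 in each mouse, so they were handled as TPM, for 107384 transcripts and 34082 gene names, a gene being the sum of its transcripts. TPM hold no depth, so no counting interval is given. The genome build is not given in the sources used here.

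Groups came from the labels, and mouse numbers follow their order only. The labels give no batch, and p-values measure the spread between these 7 mice. No pair of mice shared more than 1 gene value above 0. Scaled TPM is TPM divided by a median-ratio size factor. Genes with a mean of at least 0.5 TPM (14840) entered limma 3.58.1 (R 4.3.3) as log2(scaled TPM + 1) (mean-dependent variance, Benjamini-Hochberg adjustment, threshold 0.05). The fit was tested on simulated data. Isozyme shares within a step and transcript shares within a gene were computed per mouse (Python 3.11.15) and tested by exact permutation of the mice, two-sided, 35 splits. By rule, values per mouse belong to members with an unadjusted p under 0.05, without overlap or with a share that separates the groups, and to leading isozymes (some of these are given by their range for brevity). Other genes of the pathway are named where their groups do not overlap or they hold over 10% of a step. SLC2A5 is named for its level beside SLC2A2. G6PC2, GPD2, PFKFB3 and PGK1 were singled out after their values were seen. The members, the gene lists and the rules were chosen with earlier results of these data known. Promoters and exons came from RefSeq (GRCm38.p6) and GENCODE vM21 (GRCm38). Alternatives were other scalings, pseudocounts, filters and prior variances, other share definitions, and each mouse left out.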

Additional observations from a re-analysis of the deposited data

Results flagged for a closer look

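In the group of 4 βPrlR+/- mice, 91 values (levels, isozyme shares and leading transcript shares of the members) were checked for a mouse standing apart from the rest by Dixon's ratio at its 95% critical value. This found 4, about what chance gives at 1 in 20, and groups of 3 mice were not checked. IDH3B held 27.9% of the isocitrate dehydrogenase members in βPrlR+/- mouse 1, beside 30.3% to 30.5% in the other βPrlR+/- mice. The leading transcript of PFKL held 82.4% of the gene in βPrlR+/- mouse 1, beside 73.8% to 75.2%. The leading transcript of PFKP held 85.9% in βPrlR+/- mouse 2, beside 65.9% to 69.3%. The leading transcript of ENO2 held 45.0% in βPrlR+/- mouse 4, beside 48.9% to 49.3%. What sets these mice apart was not tested.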

How the results depend on the processing

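No member passed the adjusted threshold under any of the 16 other settings, beside 2 to 18 of all genes tested. At an unadjusted limma p under 0.05 there were 1 to 6 members. That count was 5 after leaving out the insulin genes (3.81% of all genes in that setting) and 1 (2.02%) without βPrlR+/- mice 2 and 3, the extremes of the acinar markers by mean log level, a setting chosen after seeing the data like the constant prior variance. Leaving out each mouse gave 1 to 6 (6 without βPrlR+/- mouse 1, beside 7.25% of all genes, 1 without βPrlR+/- mouse 2, beside 3.57%, and 2 without βPrlR+/- mouse 3 or 4 or Prlr+/- mouse 1 or 3, beside 3.35% to 4.99%). Members without overlap between groups numbered 5 without those 2 mice (10.8% of all genes) and 3 to 11 with each mouse left out, with 11 without Prlr+/- mouse 2 (16.2% of all genes), 7 without βPrlR+/- mouse 1 (12.8%), 6 without Prlr+/- mouse 1 (10.8%) and 5 without βPrlR+/- mouse 3 (7.49%). Members with the higher mean in Prlr+/- mice numbered 5 with TPM as deposited and 2 with β-cell marker scaling, where their median difference was -0.11 and -0.29 on the log2 scale, and 22 to 37 with each mouse left out (22 without βPrlR+/- mouse 3 or Prlr+/- mouse 3), where the median ran from -0.012 to 0.074. Of 46 members, 29 changed sign with TPM as deposited, 32 with β-cell marker scaling and 10 with upper-quartile scaling. Leading isozyme shares separated the groups in 0 to 3 of 12 steps with each mouse left out (in 1 without βPrlR+/- mouse 1, 2 or 3 or Prlr+/- mouse 3, in 2 without Prlr+/- mouse 1 and in 3 without Prlr+/- mouse 2), and leading transcript shares in 0 to 3 of 24 genes (3 without Prlr+/- mouse 3, 0 without βPrlR+/- mouse 3). What moved these counts was not tested. The other share settings gave 0. Smaller groups overlap less often by construction. No paired analysis was possible because the mice carry no shared replicate number in the labels. TPM hold no depth, so the precision of low genes such as SLC2A3 is known only from the spread between mice.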
